A study of Mus musculus with 12 samples.

Results

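The genes described here are 10 targets of canonical Wnt signalling that mark pericentral hepatocytes, the liver cells nearest to the central vein: Axin2, Lgr5, Glul, Oat, Tbx3, Rnf43, Znrf3, Nkd1, Sp5 and Lect2. They were chosen by name, and the value of each gene is the sum of its transcripts in the table of protein-coding transcripts. All 10 were among the 14188 genes of that table, and they held 22 of its 29883 transcripts. The table reports the liver of 12 mice in FPKM, a read density scaled to the length of the transcript and to the size of the library.

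All 12 mice were male C57BL/6J, 6 weeks old at the start (the labels write the strain as C57BL/8), and all were given CCl4, a solvent that injures hepatocytes, by intraperitoneal injection until the eighth week. The 6 mice of the PZH group were also given Pien Tze Huang (PZH), a traditional Chinese medicine, into the stomach every day, and the 6 mice of the control group were given double distilled water in its place. No mouse without CCl4 is analysed here, so each difference is between livers exposed to CCl4 with and without PZH. The extent of injury was not equal. The study measured less ALT and AST, enzymes that damaged liver cells release, in the serum of PZH mice when treatment ended. It read this as milder injury under PZH. The extent of injury thus differed together with the treatment, and its part in the differences was not tested. The labels name each mouse by its group and a number, and no batch is given.

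In canonical Wnt signalling, a Wnt ligand held by a Frizzled receptor and its co-receptor stops the destruction complex from degrading beta-catenin, which then acts with TCF and LEF factors on target genes. In the liver, endothelial cells of the central vein secrete Wnt ligands and R-spondin, and the nearby hepatocytes respond with a pericentral programme that includes glutamine synthesis and many cytochrome P450 enzymes. Several targets feed back on the pathway itself, which makes them common readouts of its activity.

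The sequences next to the starts of the called genes are given because canonical targets can hold TCF motifs there. The windows of 250 bases before the start were taken from the RefSeq table for GRCm38.p6, which held 8 windows of 7 of the 10 genes and none of Lgr5, Tbx3 or Znrf3. They were searched for the 7-letter TCF motif CTTTGAA and its close forms, which are CTTTGAT and also the forms CTTTGTA with its neighbour CTTTGTT, on both strands, and capitals mark a match. The windows lie at chr11:108920099-108920348 on the forward strand for Axin2, chr2:70474673-70474922 on the forward strand for Sp5 and chr13:56548539-56548788 on the reverse strand for Lect2. Each is written 5′ to 3′ on the strand of its gene.
Axin2: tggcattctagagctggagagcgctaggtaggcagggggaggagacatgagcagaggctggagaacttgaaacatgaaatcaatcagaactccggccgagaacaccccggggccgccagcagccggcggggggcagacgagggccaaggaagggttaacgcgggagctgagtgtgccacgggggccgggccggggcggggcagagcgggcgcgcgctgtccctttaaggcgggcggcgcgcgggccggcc
Sp5: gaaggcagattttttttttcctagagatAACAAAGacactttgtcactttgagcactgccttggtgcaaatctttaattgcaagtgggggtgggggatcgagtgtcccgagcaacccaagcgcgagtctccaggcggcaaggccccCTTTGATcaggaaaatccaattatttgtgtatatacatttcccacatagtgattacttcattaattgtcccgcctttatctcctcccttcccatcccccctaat
Lect2: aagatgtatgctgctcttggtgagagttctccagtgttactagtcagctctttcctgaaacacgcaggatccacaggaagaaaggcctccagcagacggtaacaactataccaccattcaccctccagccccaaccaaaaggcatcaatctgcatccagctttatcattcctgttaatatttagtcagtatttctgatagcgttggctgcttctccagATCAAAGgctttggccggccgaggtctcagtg

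The Sp5 window held CTTTGAT on the gene's strand 104 bases before the start and CTTTGTT on the other strand 222 bases before it. The Lect2 window held CTTTGAT on the other strand, 32 bases before the start. The Axin2 window held none of these letters, nor did those of Glul, Oat, Nkd1 and Rnf43. The Nkd1 window lies before the start of Nkd1-202, and the Rnf43 windows before those of Rnf43-209 and Rnf43-201. The starts of Nkd1-201 and Rnf43-202, the transcripts with the largest mean share of their gene, were not searched. Of all 32851 windows in the RefSeq table, 14.84% held at least 1 match, so 2 of 7 genes with a match is a description of these windows and nothing more.

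The expression of 5 of the 10 genes was higher in the PZH group, none was lower, and 5 did not pass the test. The 5 were Axin2, Sp5, Lect2, Tbx3 and Lgr5, and the 5 others were Glul, Oat, Nkd1, Rnf43 and Znrf3. A gene was called at a Benjamini-Hochberg adjusted p below 0.05 in limma, over all 14188 genes on the log2(FPKM + 1) scale. By that rule 12.7% of all genes were called higher and 32.1% were called lower. Sp5 was in the table only through its values in the PZH group, which favoured a higher level there. Among the other 9 genes 4 were called. The median difference, PZH minus control, was 0.32 over the 10 genes and -0.11 over all genes. The count was the same at an unadjusted p below 0.05 and by the exact permutation test, 5 higher and 0 lower. None of the 10 gene sums passed a 2-fold change with an unadjusted P below 0.05, which 4.02% of all genes passed, criteria that the study applied to transcripts. The fold was taken on the log2(FPKM + 1) scale, on which the change of a low gene is understated, and with a pseudocount of 0.1 in place of 1 the sums of Axin2, Sp5 and Tbx3 passed. All samples were bulk liver, in which fewer cells of a type and less RNA per cell cannot be told apart.

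On the FPKM scale, which is per length of transcript, the mean levels of the control mice ran in the order Lect2 (77.0 FPKM), Glul (23.4), Oat (21), Znrf3 (3.95), Rnf43 (2.42), Tbx3 (2.02), Axin2 (1.5), Nkd1 (1.21), Lgr5 (0.798) and Sp5 (0.017). Only between Lect2 and Glul, between Oat and Znrf3 and between Lgr5 and Sp5 did the mice of neighbouring genes in this order not overlap. In the PZH mice the order from the fifth place was Tbx3 (4.47 FPKM), Axin2 (3.54), Rnf43 (3.15), Lgr5 (1.31), Nkd1 (1.15) and Sp5 (0.228), and neighbours overlapped except for Lect2 with Glul, Oat with Znrf3, Rnf43 with Lgr5 and Nkd1 with Sp5.

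**Figure D1:**
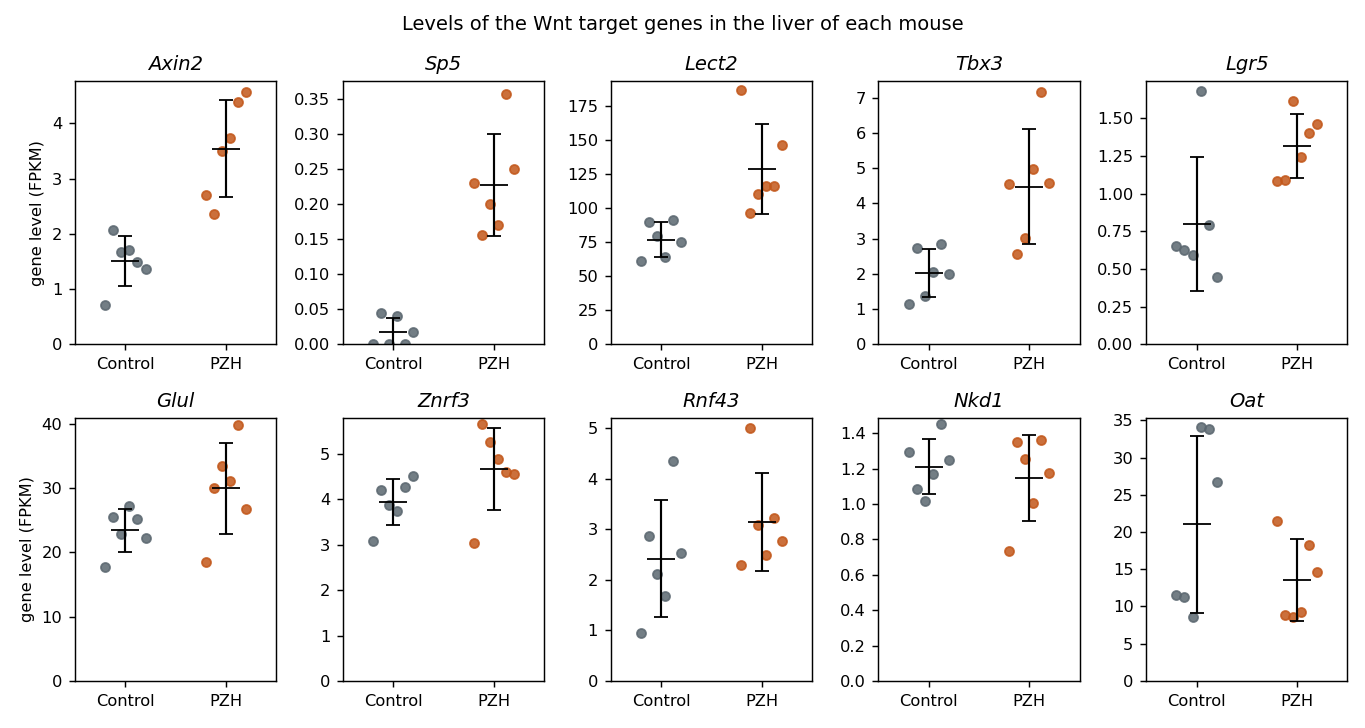
Gene level (FPKM, linear axis from 0, a separate scale for each gene) of the 10 Wnt target genes in each of the 6 control and 6 PZH mice; points are mice and bars are the mean ± SD of a group. The groups do not overlap for Axin2, Sp5 and Lect2, 1 control mouse of Lgr5 lies above all PZH mice at 1.68, and Oat splits the control mice into 3 low and 3 high values.

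Axin2 (chr11:108920349-108950783 in GRCm38, forward strand) encodes a scaffold of the destruction complex and is a feedback inhibitor of the pathway that Wnt signalling induces in most tissues. In the control mice it was listed at 0.716, 2.08, 1.66, 1.71, 1.49 and 1.36 FPKM. In the PZH mice it was listed at 2.70, 2.36, 3.49, 3.74, 4.38 and 4.57 FPKM. Every PZH mouse was above every control mouse. The mean rose from 1.5 ± 0.455 to 3.54 ± 0.884 FPKM (SD, n = 6), a ratio of 2.36. The difference on the log2(FPKM + 1) scale was 0.86 ± 0.153 (SE, limma, adjusted p = 0.00065), and by exact permutation p = 0.0022, the smallest value that 924 labellings allow. Groups that did not overlap, with PZH higher, were seen for 3 of the 10 genes, for 2 of the 9 other than Sp5 and for 6.46% of all genes.

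The full-length transcript Axin2-201 (ENSMUST00000052915, 11 exons) carried most of the gene, with a mean share of 67.0% in the controls and 67.1% under PZH. Axin2-201 rose by itself, from 0.716 to 1.3 FPKM in the control mice against 1.65 to 3.10 FPKM in the PZH mice, and these ranges do not overlap (difference 0.77 ± 0.118, limma adjusted p = 0.00083 over all transcripts). The 2-exon transcripts Axin2-204 and Axin2-206 lie near the start of the gene. Axin2-204 had a difference of 0.44 with an adjusted p of 0.0511 and was listed at 0 in Control 1. Axin2-206 was in the table only through the PZH group and was not called (adjusted p = 0.392).

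Nkd1 (chr8:88521354-88594884, forward strand), which binds Dishevelled and restrains the pathway, did not pass the test. Its level was between 1.02 and 1.45 FPKM in the control mice, with a median of 1.21, and between 0.732 and 1.36 FPKM in the PZH mice, with a median of 1.21. The groups overlapped almost whole, and the difference was -0.05 with a 95% interval from -0.23 to 0.13 (limma, adjusted p = 0.677). Its sign turned to 0.05 after median-ratio scaling and to 0.01 without PZH 1.

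Rnf43 (chr11:87662722-87735539, forward strand) and Znrf3 (chr11:5276324-5444847, reverse strand) are related membrane ubiquitin ligases that remove Frizzled receptors from the cell surface, and R-spondins act by clearing them. Rnf43 was listed between 0.952 and 4.34 FPKM in the control mice, with a median of 2.32, and between 2.30 and 5.0 FPKM in the PZH mice, with a median of 2.93. The groups overlapped, and the difference was 0.32 with a 95% interval from -0.14 to 0.78 (limma, adjusted p = 0.244). Znrf3 was listed between 3.08 and 4.51 FPKM in the control mice, with a median of 4.04, and between 3.03 and 5.67 FPKM in the PZH mice, with a median of 4.75. For Znrf3, 5 of the 6 PZH mice were above every control mouse and PZH 1 was below them all. The difference was 0.18 with a 95% interval from -0.06 to 0.43 (adjusted p = 0.214). Without PZH 1 it was 0.28 and passed the test (adjusted p = 0.0174), and it also passed after median-ratio scaling, at 0.33 (adjusted p = 0.0137).

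The transcripts of Rnf43 took unequal shares in different mice. Rnf43-202 was listed at 4.70 FPKM in PZH 2 and 4.05 FPKM in Control 5, and at no more than 2.04 FPKM in the other 10 mice. In the same 2 mice Rnf43-209 was at its lowest, 0.222 and 0.198 FPKM. Those 2 mice are also the highest of their groups for the summed gene. None of the 3 Rnf43 and 3 Znrf3 transcripts was called.

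Lgr5 (chr10:115450311-115587780, reverse strand, a single listed transcript of 18 exons) encodes a receptor for R-spondins and marks the hepatocytes next to the central vein. The control mice had 0.651, 0.628, 0.589, 1.68, 0.792 and 0.449 FPKM. The PZH mice had 1.08, 1.09, 1.62, 1.24, 1.40 and 1.46 FPKM. The 6 PZH mice lay above 5 of the 6 control mice and below Control 4. The mean was 1.31 ± 0.214 FPKM under PZH against 0.798 ± 0.446 FPKM in the controls (SD, n = 6), a ratio of 1.65. The difference was 0.39 ± 0.13 (SE, limma, adjusted p = 0.0267), and the exact permutation test gave p = 0.026. Without Control 4 it was 0.51 (adjusted p = 0.000504). The call was lost, with adjusted p between 0.0512 and 0.0599, when any of Control 1, Control 2, Control 3, Control 6, PZH 3 or PZH 6 was left out. As a transcript among 29883, Lgr5-201 had an adjusted p of 0.0622.

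Sp5 (chr2:70474923-70477729, forward strand, 2 exons) encodes a zinc finger factor of the Sp family, a direct target that represses other targets of the pathway. It was the lowest of the 10 genes. In Control 1, Control 3 and Control 5 it was listed at 0, and in Control 2, Control 4 and Control 6 at 0.0443, 0.0403 and 0.0171 FPKM. The PZH mice were listed at 0.231, 0.157, 0.20, 0.17, 0.358 and 0.251 FPKM. Every PZH mouse was above every control mouse. The difference on the log2(FPKM + 1) scale was 0.27 ± 0.054 (SE, limma, adjusted p = 0.0014), and with a pseudocount of 0.1 it was 1.48. Sp5 summed to 1.37 FPKM over the PZH mice and 0.102 FPKM over the control mice, where the lowest listed sum was 1 FPKM. Sp5 was thus in the table only through the PZH group, which favoured a higher level there. The separation and the p-value are therefore no independent evidence of a change.

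The depth of the libraries is not given. The steps between the smallest FPKM values were best matched, within a search from 20 to 50 M fragments, by 27.6 to 42.8 M fragments for a PZH mouse and 26.8 to 35.65 M for a control mouse. At these depths the Sp5 values amount to 10 to 22.5 fragments a mouse under PZH and 0 to 3 a mouse in the controls. Of the values that amount to 0.5 to 5.5 fragments, only 1.86% to 2.54% lay within 0.005 of a whole number. About 1% would by chance at a depth fixed in advance, and taking the best match of a search raises that share. Counts were thus not recovered, the depths are uncertain, and the Sp5 fragments are estimates. If these depths hold, Sp5 rests on few fragments in every mouse.

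Tbx3 (chr5:119670669-119684724, forward strand) encodes a T-box transcription factor of pericentral hepatocytes. The control mice had 1.14, 2.73, 1.37, 2.06, 2.84 and 2.0 FPKM. The PZH mice had 4.55, 2.56, 3.02, 4.97, 7.17 and 4.57 FPKM. Of the PZH mice 5 were above every control mouse, and PZH 2 lay within the control range. The mean was 4.47 ± 1.63 FPKM against 2.02 ± 0.689 FPKM (SD, n = 6), a ratio of 2.21. The difference was 0.84 ± 0.20 (SE, limma, adjusted p = 0.0047), and the exact permutation test gave p = 0.0087.

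Of the 3 Tbx3 transcripts, Tbx3-201 alone was called. Tbx3-201 (ENSMUST00000018748) holds a coding exon of 60 bases, the exon 3 of its 8 exons, at chr5:119675243-119675302, which Tbx3-202 and Tbx3-203 lack. The exon separates Tbx3-201 from Tbx3-202 and Tbx3-203 but not these from each other, and the 3 transcripts also differ in their annotated starts. It is shown in capitals with 30 bases of the coding sequence on each side, above the same stretch of Tbx3-202 without it.
Tbx3-201: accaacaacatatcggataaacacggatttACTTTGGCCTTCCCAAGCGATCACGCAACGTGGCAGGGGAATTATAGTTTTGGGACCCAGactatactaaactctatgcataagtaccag
Tbx3-202: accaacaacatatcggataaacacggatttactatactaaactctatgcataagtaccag

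Tbx3-201 was listed between 0.00867 and 0.585 FPKM in the control mice, with a median of 0.169, and between 0.648 and 4.21 FPKM in the PZH mice, with a median of 2.13. The groups did not overlap, and the difference was 1.40 ± 0.257 (SE, limma, adjusted p = 0.0025). Tbx3-202 and Tbx3-203 had differences of -0.28 (adjusted p = 0.726) and 0.25 (adjusted p = 0.725). The mean share of Tbx3-201 in the gene was 60.4% in the PZH mice, with a range from 9.03% to 92.3%, and 12.5% in the control mice, with a range from 0.433% to 28.4%. Tbx3-203 was listed at 0 in 2 PZH and 4 control mice, and PZH 5 carried 5.83 FPKM of Tbx3-202. The split of the gene into transcripts thus differed widely between mice of the same group.

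**Figure D2:**
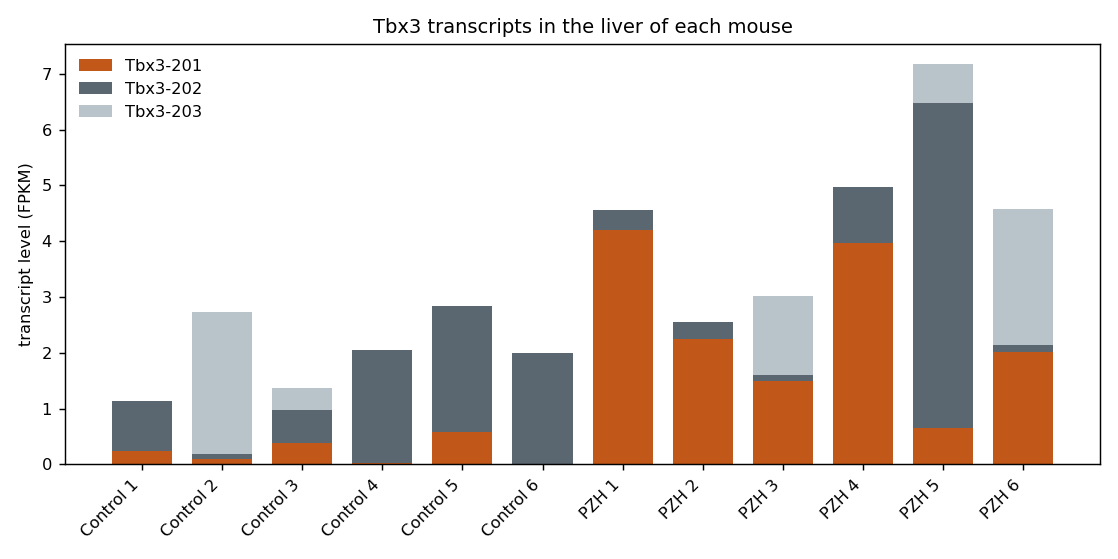
Level (FPKM, stacked, linear axis from 0) of the 3 Tbx3 transcripts in each of the 12 mice; the height of a bar is the level of the gene. Tbx3-201 is at most 0.585 FPKM in the control mice and at least 0.648 FPKM in the PZH mice, and the other transcripts change places between mice of the same group.

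Glul (chr1:153899944-153909723, forward strand) encodes glutamine synthetase, the enzyme that captures the last ammonia before blood leaves the lobule and the usual stain for the innermost pericentral cells. It was listed between 17.7 and 27.1 FPKM in the control mice, with a median of 24.0, and between 18.5 and 39.8 FPKM in the PZH mice, with a median of 30.6. Of the PZH mice 4 were above every control mouse, PZH 6 was within the control range, and PZH 1 was lower than every mouse but Control 1. The difference was 0.32 with a 95% interval from -0.02 to 0.66 (limma, adjusted p = 0.114). Without PZH 1 it was 0.45 and passed the test (adjusted p = 0.0094), and after median-ratio scaling it was 0.50 (adjusted p = 0.0093). After rescaling to an equal sum per mouse it was 0.28 and did not pass (adjusted p = 0.215). PZH 1 was the mouse with the lowest median-ratio scale factor, 0.856, against 0.914 to 1.02 in the other PZH mice, while control mice had 1.04 to 1.12.

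Oat (chr7:132557478-132576398, reverse strand) encodes ornithine aminotransferase, a mitochondrial enzyme that shares the pericentral position of Glul. It was listed at 11.6, 11.3, 8.56, 34.1, 33.9 and 26.7 FPKM in the control mice and between 8.63 and 21.5 FPKM in the PZH mice, with a median of 12. Control 4, Control 5 and Control 6 were above every PZH mouse, and Control 1, Control 2 and Control 3 lay within or just under the PZH range. The difference was -0.49 with a 95% interval from -1.27 to 0.30 (limma, adjusted p = 0.30), the widest interval of the 10 genes. Oat and Glul did not split the control mice in the same way, since Glul was between 22.2 and 27.1 FPKM in Control 4, Control 5 and Control 6 and between 17.7 and 25.4 FPKM in the others.

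Lect2 (chr13:56542464-56548502, reverse strand) encodes a secreted protein of hepatocytes and is a target of beta-catenin in the liver. It was the most abundant of the 10 genes. The control mice had 60.9, 90.0, 80.0, 64.3, 91.7 and 74.9 FPKM. The PZH mice had 187, 96.6, 111, 117, 116 and 147 FPKM, all above the control mice. The mean was 129 ± 32.9 FPKM against 77.0 ± 12.8 FPKM (SD, n = 6), a ratio of 1.68. The difference was 0.72 ± 0.156 (SE, limma, adjusted p = 0.0024), and by exact permutation p = 0.0022, again the smallest possible. Nearly all of it was Lect2-201 (ENSMUST00000062806), with mean shares of 96.7% under PZH and 96.6% in the controls, and the difference of this transcript was 0.72 (adjusted p = 0.0058).

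Of the 22 transcripts, 4 were called higher and 0 lower: Axin2-201, Sp5-201, Tbx3-201 and Lect2-201. Over all 29883 transcripts 5.73% were called higher and 14.0% lower. The 4 belong to different genes, and their groups did not overlap. No other of the 22 had groups that did not overlap, and over all transcripts 3.41% did so with PZH higher. Sp5-201 and Axin2-206 were in the table only through the PZH group, and among the other 20 transcripts 3 were called higher and 3 had groups that did not overlap. By a 2-fold change with an unadjusted P below 0.05, 1 of the 22 passed, Tbx3-201 (difference 1.40), beside 3.23% of all transcripts.

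Members overlapped by another gene are Axin2 (Gm11670, antisense), Lgr5 (A930009A15Rik, opposite strand), Glul (Teddm2, within it) and Tbx3 (Tbx3os1, antisense). The libraries were strand-specific, but whether the quantification used strand is not given in the sources used here, so fragments of these partners could be counted with the gene.

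**Figure D3:**
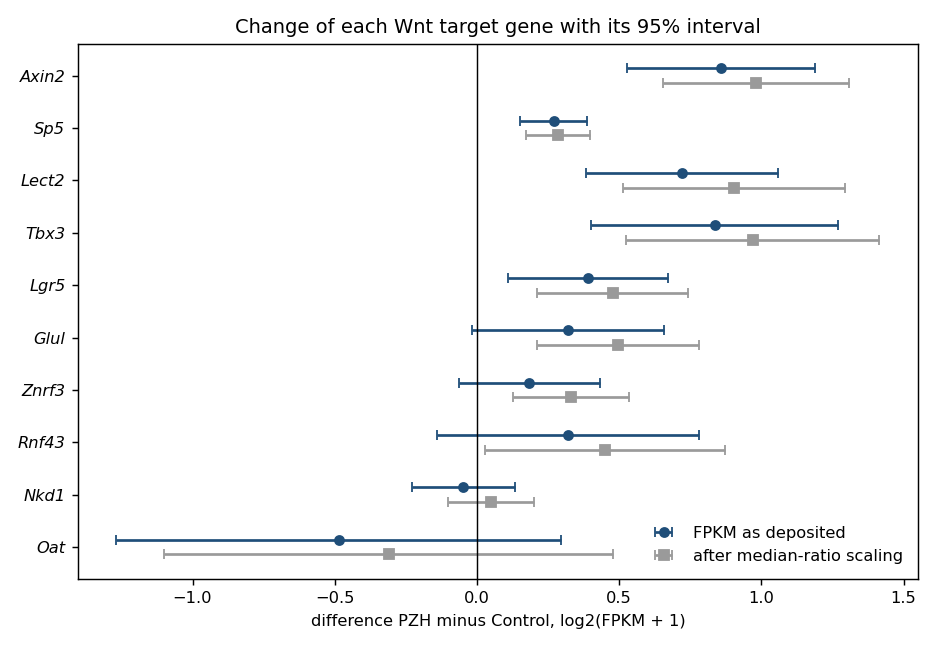
Difference PZH minus control on the log2(FPKM + 1) scale for each of the 10 genes, with its 95% interval from limma (n = 6 mice per group), for FPKM as deposited (circles) and after median-ratio scaling (squares). The intervals of Axin2, Sp5, Lect2, Tbx3 and Lgr5 lie above 0 in both, that of Oat spans 0 in both, and scaling moves all genes to the right.

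Scaling changed the calls of Glul and Znrf3. With the deposited FPKM, 1798 genes were called higher and 4560 lower, and the median difference of all genes was -0.11. After each mouse was scaled by its median ratio to the others, 2735 were called higher and 2795 lower, and the median difference was -0.005. Against that background Axin2, Sp5, Lect2, Tbx3, Lgr5, Glul and Znrf3 were called higher, and Nkd1, Rnf43 and Oat were not called.

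The genes that act upstream were called in both directions. Of 80 genes in 7 lists of the pathway, 54 were in the table, and 5 were called higher, 9 lower and 40 not. Both called shares were below those of all genes, 12.7% higher and 32.1% lower. The median difference of the 54 was -0.03. After median-ratio scaling 9 were called higher and 6 lower, with a median of 0.06. Over all 14188 genes this scaling moved the calls from 1798 higher and 4560 lower to 2735 higher (19.3%) and 2795 lower. The balance of directions thus changed with the scaling both in these lists and over all genes.

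Of the Wnt ligands 7 of 19 were in the table. Wnt2 and Wnt9b, the ligands known from central vein and sinusoidal endothelium, were not called: Wnt2 was between 2.03 and 2.77 FPKM in the control mice and between 2.41 and 2.89 FPKM in the PZH mice (difference 0.06, adjusted p = 0.481). Wnt9b was between 0.784 and 1.38 FPKM in the control mice and between 0.438 and 1.09 FPKM in the PZH mice, with a difference of -0.24 (adjusted p = 0.0519). Wnt5b, a ligand of non-canonical signalling, was higher in the PZH group, at 0.891 to 1.87 FPKM against 0.568 to 0.886 FPKM in the controls with no overlap (difference 0.41, adjusted p = 0.0064). Wnt4 was lower, at a mean of 1.19 ± 0.319 FPKM under PZH against 2.20 ± 0.428 FPKM in the controls (SD, n = 6; difference -0.55, adjusted p = 0.0021).

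Of the R-spondins and their receptors, 3 of 6 were in the table. Rspo3, the R-spondin of the central vein, was between 1.97 and 2.43 FPKM in the control mice and between 1.56 and 2.85 FPKM in the PZH mice (difference 0.09, adjusted p = 0.463). Lgr4, the broadly expressed relative of Lgr5, was higher in the PZH group with no overlap, at a mean of 13.0 ± 1.2 FPKM against 9.59 ± 0.904 FPKM (SD, n = 6; difference 0.40, adjusted p = 0.0011). Wls, the carrier that takes Wnt ligands to the cell surface, was also higher, at 3.02 ± 0.25 FPKM against 2.08 ± 0.26 FPKM (difference 0.38, adjusted p = 0.00069). Both passed after median-ratio scaling.

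Of 12 listed Wnt receptors and co-receptors, Fzd4 and Fzd8 were higher and Fzd5 was lower in the PZH group. Over all genes 12.7% were called higher and 32.1% lower. Fzd4 had a mean of 9.04 ± 0.796 FPKM under PZH against 5.80 ± 0.839 FPKM in the controls (SD, n = 6), with no overlap (difference 0.57, adjusted p = 0.00025). Fzd8 had a difference of 0.54 (adjusted p = 0.0028). The call of Fzd5, at -0.22 (adjusted p = 0.0455), was lost after median-ratio scaling, at -0.09 (adjusted p = 0.431). The co-receptors Lrp5 and Lrp6 had differences of 0.003 and -0.02 and were not called.

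Of 7 listed secreted and membrane inhibitors, Frzb and Kremen1 were lower in the PZH group, beside 32.1% of all genes. Frzb, a soluble protein that binds Wnt ligands, was between 1.68 and 3.46 FPKM in the PZH mice and between 4.64 and 7.22 FPKM in the control mice, with no overlap (difference -0.99, adjusted p = 0.0001). Kremen1 had a difference of -0.27 (adjusted p = 0.0114), and its call was lost after median-ratio scaling (adjusted p = 0.0786). Notum, a secreted enzyme that inactivates Wnt ligands and is itself a pericentral target, was between 2.26 and 5.37 FPKM in the control mice and between 1.77 and 7.85 FPKM in the PZH mice (difference 0.39, adjusted p = 0.287).

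Of the 10 genes of the destruction complex and Dishevelled, 4 were lower in the PZH group and none was higher, a share near the 32.1% of all genes called lower. Axin1, the constitutive relative of Axin2, fell from 11.5 ± 2.02 FPKM in the control group to 6.20 ± 1.15 FPKM in the PZH group (SD, n = 6), with no overlap (difference -0.80, adjusted p = 0.0004). Its direction is opposite to that of Axin2, whose groups also did not overlap. The share of all genes whose groups did not overlap with PZH lower is not given here. The separation of Axin1, like that of Frzb, Sox9 and Cd44, is therefore a description only. Dvl3 had a difference of -0.70 (adjusted p = 0.0034) and Gsk3a of -0.54 (adjusted p = 0.0031). Dvl2 had a difference of -0.25 (adjusted p = 0.0335), which did not pass after median-ratio scaling. Apc and Gsk3b were not called.

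Of 13 listed genes for beta-catenin and its nuclear partners, Tcf7 alone was called, lower in the PZH group at -0.36 (adjusted p = 0.0078). Over all genes 32.1% were called lower. Ctnnb1, which encodes beta-catenin, was between 42.1 and 75.4 FPKM in the control mice, with a median of 70.3, and between 45.5 and 60.8 FPKM in the PZH mice, with a median of 57.5 (difference -0.21, adjusted p = 0.204). Its activity is set by protein stability, which RNA does not show. Tcf7l2, the main TCF factor of hepatocytes, had a difference of 0.10 and was not called (adjusted p = 0.653).

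Of 7 listed Wnt targets known mainly from other tissues, Sox9 and Cd44 were lower in the PZH group, beside 32.1% of all genes, and none was higher. Sox9 was between 2.22 and 3.42 FPKM in the PZH mice and between 8.64 and 13.5 FPKM in the control mice, with no overlap (difference -1.64, adjusted p = 5.2e-06). Cd44 had a difference of -1.02 (adjusted p = 0.00026), also with no overlap. Ccnd1, at -0.44 (adjusted p = 0.128), and Myc, at -0.89 (adjusted p = 0.0564), were not called. Sox9 and Cd44 are also known from bile duct cells, progenitors and injured tissue.

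**Figure D4:**
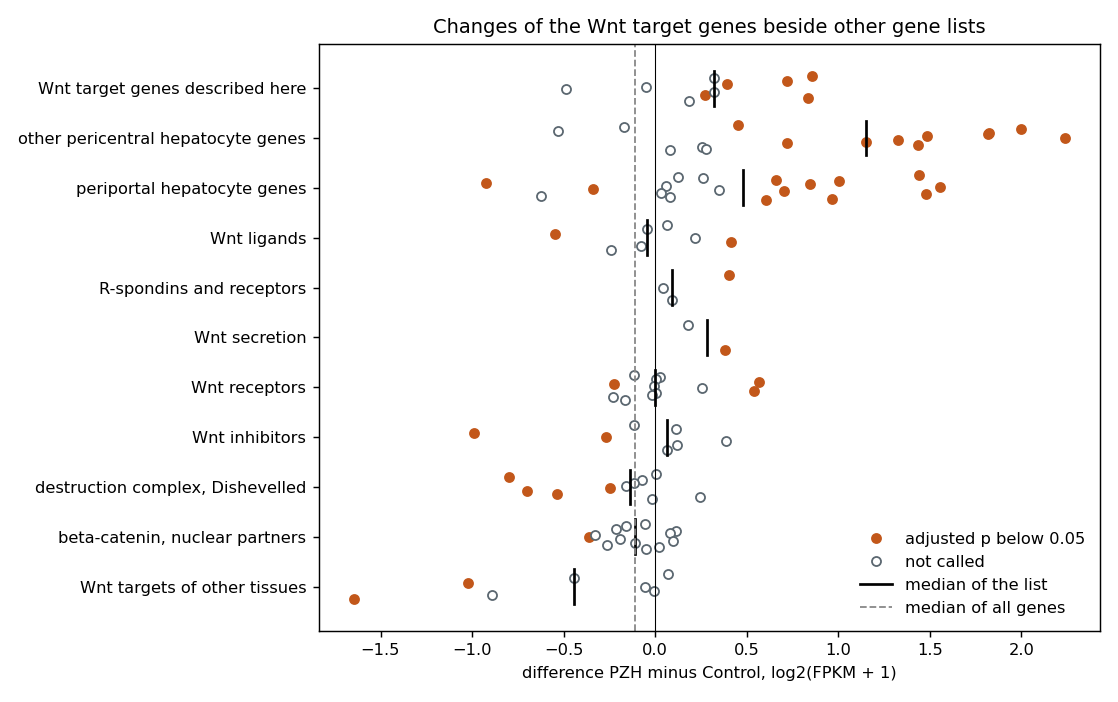
Difference PZH minus control on the log2(FPKM + 1) scale for each gene (points) of the 10 Wnt target genes and of 10 other lists, with filled points for an adjusted p below 0.05, a black bar at the median of each list and a dashed line at the median of all genes, -0.11. The median is 0.32 for the Wnt target genes, 1.15 for the other pericentral genes and 0.48 for the periportal genes.

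Pericentral genes outside the 10 were called higher in most cases. Of 16 such genes 15 were in the table, and 10 were called higher and 0 lower, beside 12.7% and 32.1% of all genes. The median difference of the 15 was 1.15, against 0.32 for the 10 Wnt target genes. The gap between these medians was not tested, and the log2(FPKM + 1) scale understates low genes, such as most of the 10. Cyp2e1, the P450 enzyme that turns CCl4 into its toxic radical, was between 132 and 299 FPKM in the control mice and between 607 and 1363 FPKM in the PZH mice (difference 2.24, adjusted p = 1.7e-05). Cyp1a2 had a difference of 2.0, Cyp2c29 of 1.82 and Cyp2c37 of 1.82, all with no overlap between the groups. The 5 genes not called were Cyp2a5, at -0.53, and Rhbg, Avpr1a, Slc16a10 and Slc13a3, between -0.17 and 0.28. Under median-ratio scaling the same numbers, 10 higher and 0 lower, were found, where 19.3% of all genes were called higher and 2795 of 14188 lower.

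Periportal genes were also called, mostly higher. Of 18 of these, which mark the opposite end of the lobule, 9 were called higher and 2 lower, beside 12.7% and 32.1% of all genes. The median difference of the 18 was 0.48. After median-ratio scaling 13 were called higher and 1 lower, where 19.3% of all genes were called higher and 2795 of 14188 lower. Etnppl had a difference of 1.55, Hsd17b6 of 1.48, Aldh1b1 of 1.44 and Ass1, an enzyme of the urea cycle, of 1.0. Cdh1, at -0.93, and Gldc, at -0.34, were lower, and the call of Gldc was lost after median-ratio scaling. Cyp2f2, the periportal P450 enzyme, had a difference of 0.06 and was not called (adjusted p = 0.666). The difference between the pericentral and the periportal list was not tested.

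Cell type markers that moved beside these genes are given here as values, and their part in the changes of the 10 genes was not tested. Over all genes 12.7% were called higher and 32.1% lower. After median-ratio scaling 19.3% of all genes were called higher, and 2795 of 14188 were called lower. Of 8 hepatocyte markers 3 were higher and 1 lower, and their summed level was 42170 to 58380 FPKM in the PZH mice and 24700 to 38200 FPKM in the control mice. Most of this sum was Alb, the albumin gene, at 33360 to 46360 FPKM under PZH against 18020 to 29480 FPKM (difference 0.68). Apob, Serpina1a and Apoa1, at 0.13, 0.07 and 0.28, were not called, and Hnf4a was lower at -0.30. After median-ratio scaling 5 hepatocyte markers were higher and 0 lower, and the call of Hnf4a was lost (-0.11, adjusted p = 0.181). Of 10 sinusoidal endothelial markers none was higher and 2 were lower, Pecam1 at -0.29 and Lyve1 at -0.62, and their summed level was 128 to 166 FPKM in the PZH mice and 143 to 161 FPKM in the control mice. After median-ratio scaling 2 of these were higher and 1 lower, and the call of Pecam1 was lost (-0.12, adjusted p = 0.188). Of 8 stellate cell and myofibroblast markers 2 were higher and 2 lower, with a summed level of 123 to 210 FPKM in the PZH mice and 92.4 to 162 FPKM in the control mice. Of 7 Kupffer cell and macrophage markers 2 were higher and 1 lower, with 327 to 515 FPKM against 305 to 411 FPKM. None of 4 listed cholangiocyte markers, with 64.6 to 130 FPKM in the PZH mice and 88.2 to 148 FPKM in the control mice, and none of 6 lymphocyte and granulocyte markers, with 12.9 to 126 FPKM against 17.1 to 61.3 FPKM, was called. After median-ratio scaling 3 stellate cell markers were higher and 2 lower, 3 Kupffer cell markers were higher and 0 lower, and 1 marker each of cholangiocytes and of lymphocytes and granulocytes was higher. All 6 proliferation genes were higher, at a summed 8.48 to 20.3 FPKM in the PZH mice and 2.44 to 4.78 FPKM in the control mice, Birc5 the most at 1.32.

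Pairs of the 10 genes were compared across the mice within a group. Pearson's r was above 0 for 37 of 45 pairs among the control mice and for 28 of 45 among the PZH mice. Of the 90 pairs 8 had an exact permutation p below 0.05, where 0 passed after adjustment over the 90. The smallest p that 720 orders of 6 mice allow, 0.0014, is above the 0.00056 that a single pair among 90 would need by itself, so the design could not pass 1 pair alone. The closest were Znrf3 and Lect2 in the PZH group, with r = -0.95 (exact permutation p = 0.0028, adjusted p = 0.208) and Spearman's rho = -0.94 (p = 0.0167, adjusted p = 0.50). Without the 2 mice farthest from the median of Znrf3 this r was -0.69. The median r over pairs was 0.48 among the control mice and 0.20 among the PZH mice.

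The genes whose level followed Axin2 most closely in both groups were sought among 10947 genes with a mean of at least 1 FPKM, ranked by the smaller of the 2 Pearson correlations over 6 mice each. They were Aqp11, with r = 0.93 among PZH mice and among controls, Nr1d1, with 0.93 and 0.95, and Amacr, with 0.97 and 0.91. Those of Glul were Asah2, with 0.95 and 0.94, Neurl3, with 0.90 and 0.92, and Akap1, with 0.97 and 0.90. These are descriptions, since the highest of so many correlations over 6 mice are high in any data.

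The table of 1432 lncRNA transcripts held 1 transcript of a gene within 50 kb of any of the 10 genes, Mir142hg, the host gene of a microRNA of blood cells, 20 kb from Rnf43. It was between 1.5 and 2.11 FPKM in the control mice and between 0.977 and 1.64 FPKM in the PZH mice, and the groups overlapped. The difference was -0.30 ± 0.095 (SE, limma, adjusted p = 0.0421 over the lncRNA table, in which 8.38% were called lower). The call was lost when any of 7 single mice was left out and after median-ratio scaling.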

How the data were processed

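The livers of 6 PZH and 6 control mice were profiled from strand-specific RNA libraries depleted of ribosomal RNA. Per the labels and the study's methods, reads passed through Trimmomatic, HISAT2 (on GRCm38) and StringTie (on the Ensembl annotation), and the authors deposited linear FPKM values per transcript and mouse. The deposited tables hold 29883 protein-coding and 1432 lncRNA transcripts, and the lowest sum of a listed protein-coding transcript over the 12 mice was 1 FPKM. FPKM is already divided by library size, so depth is not stated, counts cannot be tested and no counting interval was computed.

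Columns were matched to mice by group and number. Transcripts were summed by gene with GENCODE M21 (GRCm38), which held 29876 of the 29883. log2(FPKM + 1) was compared between the groups with limma 3.58.1 in R 4.3.3, with default moderation, no covariate and no filter, over all 14188 genes, 29883 transcripts or 1432 lncRNA transcripts. Adjusted p-values are by Benjamini-Hochberg, intervals are at 95%, and tests are two-sided. Exact permutation tests used the 924 labellings of 12 mice, whose smallest p is 0.0022, and the 720 orders of 6 mice for correlations. The limma p-values set a group difference against the spread between these mice, moderated over all genes or transcripts. The permutation p-values place the observed value among all labellings or orders of these mice. Other steps ran in Python 3.11.15, with numpy 2.4.6 for permutations, pandas 2.3.3 for tables and matplotlib 3.10.9 for plots.

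The genes, lists, tests and alternatives were chosen with earlier results of these data known. Named genes are all 10 targets, up to 4 called genes of each list by size of change, and Wnt2, Wnt9b, Rspo3 and Ctnnb1. Other genes of the lists that are named (Lrp5, Lrp6, Apc, Gsk3b, Notum, Tcf7l2, Ccnd1, Myc, Cyp2f2, Cdh1, Gldc, Apob, Serpina1a, Apoa1 and the genes not called among the pericentral ones) were added after their values were seen. On simulated data of 14188 genes with 200 changed, the fit recovered 49% of those changed by 0.5 and 86% of those changed by 1 on the log2 scale, and called 7 unchanged genes. The 200 were drawn from genes with a control mean above 1 on the log2(FPKM + 1) scale, which leaves out Sp5 and Lgr5. In the data far more genes were called, 1798 higher and 4560 lower, so these shares do not give the recovery for the 10 genes. Same-numbered mice did not deviate together (correlations -0.078 to 0.093), so the numbers were not used as a block. The correlation between any 2 mice over transcripts was 0.895 to 0.939, and no mouse was a copy of another.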

Additional observations from a re-analysis of the deposited data

Results flagged for a closer look

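In each group of 6 mice, the gap between the most extreme mouse and its nearest neighbour was set against the range of the group. This was done on the log2(FPKM + 1) scale, for the 10 genes and for Wnt2, Wnt9b, Rspo3 and Ctnnb1. The flags hold for that scale, and the levels below are in FPKM. Of the 28 groups 5 held a mouse whose gap was larger than the limit, where chance gives about 1 in 20. The mice that stood apart were Control 4 for Lgr5, high at 1.68 FPKM, PZH 1 for Znrf3, low at 3.03 FPKM, PZH 5 for Rspo3, low at 1.56 FPKM, PZH 4 for Ctnnb1, low at 45.5 FPKM, and Control 6 for Ctnnb1, low at 42.1 FPKM. They were 5 different mice. Without Control 4 the difference of Lgr5 was 0.51 (limma, adjusted p = 0.000504), and without PZH 1 that of Znrf3 was 0.28 (limma, adjusted p = 0.0174).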

How the results depend on the processing

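Axin2, Lect2 and Tbx3 kept their direction and their call under every alternative. Sp5 did so wherever it was tested (a mean of at least 1 FPKM removed it). But Sp5 was in the table only through the PZH group, which favoured this outcome in advance. The number of Wnt target genes called ranged from 4 to 7 over the other settings and from 4 to 7 with each mouse left out. A pseudocount of 0.1 took the number at a 2-fold change with P below 0.05 from 0 to 3. Median-ratio scaling took the number of their transcripts called from 4 to 7. Lgr5 had adjusted p between 0.0081 and 0.045 under the other settings and between 0.0005 and 0.0599 with a mouse left out. Mir142hg was at -0.47 with a pseudocount of 0.1 and at -0.19 after median-ratio scaling, and did not pass in either (adjusted p = 0.0857 and 0.111). With each mouse left out it ranged from -0.34 to -0.26. The number of called pathway genes ranged from 12 to 16, of other pericentral genes from 9 to 11 and of periportal genes from 10 to 14. With the mouse number as a replicate block, 6 of the 10 genes were called, Glul being added (0.32, adjusted p = 0.0247). Mice of the same number did not deviate together, and 1 of 12 mice correlated best with its own number. Why a call changed with a setting was not tested. The low levels of Sp5, and the assignment of fragments among transcripts of Tbx3 and Rnf43, limit what the depth can show.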
